A study of Mus musculus with 6 samples.

Results

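Periostin, nephronectin and 6 further matricellular proteins were followed in cultured epithelial cells of the hair follicle bulge, the part of the follicle that houses its stem cells. The genes were Postn (periostin), Tgfbi (transforming growth factor beta induced), Fstl1 (follistatin-like 1), Sparc, Tnc (tenascin C), Thbs1 and Thbs2 (thrombospondins) and Npnt (nephronectin). All probe sets that the array annotation assigned to exactly 1 of these symbols were taken, which gave 22 probe sets of 45037 and 8 genes of 18193. Postn, Fstl1 and Npnt had been picked for their large drop in the very contrast described here, so their differences are given without a test. The other 5 genes were chosen as relatives of the same kind of protein, with earlier results of these data known.

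The cells were isolated from the bulge of vibrissa (whisker) follicles of mice aged 7 to 8 weeks, and each isolation was divided between the NFFSE and the NFFS medium. NFFSE medium contained Noggin (a BMP antagonist), FGF-7, FGF-10, the Smoothened agonist SAG and EGF, the ligand of the epidermal growth factor receptor, each at 50 ng/ml. NFFS medium contained the same factors without EGF, so that Noggin, FGF-7, FGF-10 and SAG were common to both. Spheroids were grown for 6 days in a 1% atelocollagen gel, the experiment was done 3 times, and 100 ng of RNA per culture was hybridised to an expression array, which gave 3 NFFSE and 3 NFFS arrays. A change of medium also changes which cells grow out, and fewer cells of a type cannot be told apart from less RNA per cell in such bulk samples.

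Matricellular proteins are secreted into the matrix around cells, where they act less as scaffold than as modulators: they bind integrins and other receptors, collagens and growth factors. Many are scarce in resting adult tissue and are induced in wounds and during remodeling. Periostin and TGFBI are paralogs built from fasciclin domains that bind integrins, and both are induced by TGF-beta in many cells. SPARC and FSTL1 share the SPARC family's extracellular calcium-binding fold, thrombospondins 1 and 2 are close paralogs that bind CD36 and CD47, and tenascin C is a large hexameric glycoprotein of wounds and developing epithelia. Nephronectin is a ligand of integrin alpha8 beta1 and, in the bulge of mouse skin follicles, part of the basement membrane to which the arrector pili muscle attaches.

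Signals were array intensities on a common scale, and a signal at or below 22.7, the highest value of the bacterial TrpnX control probe sets over the 6 arrays, was taken as background. The median signal over all probe sets was between 56.3 and 64.8 on NFFSE arrays and between 66.2 and 70.5 on NFFS arrays, and arrays correlated at r of 0.9325 to 0.9437 within a medium and 0.8971 to 0.9188 between media. The 3′ minus 5′ difference of the Gapdh control probe sets, a sign of RNA quality, was -0.37 ± 0.011 in NFFSE and -0.62 ± 0.017 in NFFS on the log2 scale (SD, n = 3 each). The Gapdh difference therefore moved with the medium. That of the Actb control probe sets was 0.258, 0.269 and 0.295 in NFFSE and 0.265, 0.374 and 0.360 in NFFS, with overlap between media. The part of RNA quality in the results below was not tested. Epithelial keratins were bright everywhere. Krt5, a keratin of basal epithelium, gave 32291, 37118 and 37329 in NFFSE and 25999, 30368 and 28235 in NFFS.

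Over all probe sets, limma (a linear model with moderated variances) called 20.4% different at an adjusted p under 0.05, with 7.69% higher and 12.7% lower in NFFSE. Calls ran 37.8% higher and 62.2% lower. After division of each array by its median signal they ran 57.7% higher and 42.3% lower, and the median difference over all probe sets was 0.14 in place of -0.06 on the log2 scale.

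The 8 genes split. All 8 probe sets of the 3 picked genes had negative log2 differences (NFFSE minus NFFS), with a median of -2.63, which restates how they were chosen. The 14 probe sets of the 5 other genes had a median of 0.15, and limma called 5 of them lower and 5 higher, against 12.7% lower and 7.69% higher over all probe sets. The remaining 4 were not called. None of the 14 was dim, and with dim probe sets left out the shares were 21.3% lower and 13% higher. Of the 5 higher calls, 4 were probe sets of Tgfbi, so these are counts of probe sets and not of independent genes. Arrays of the media did not overlap for 11 of these 14 probe sets. Over all probe sets 36.2% showed no overlap, 14.8% with NFFSE above and 21.4% with NFFSE below. The media also did not overlap for 6 of the 8 picked probe sets, which restates how those were chosen. Sparc and Thbs1 were lower in NFFSE, Tgfbi and 1 of 3 Thbs2 probe sets were higher, and the Tnc probe sets differed in direction.

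**Figure D1:**
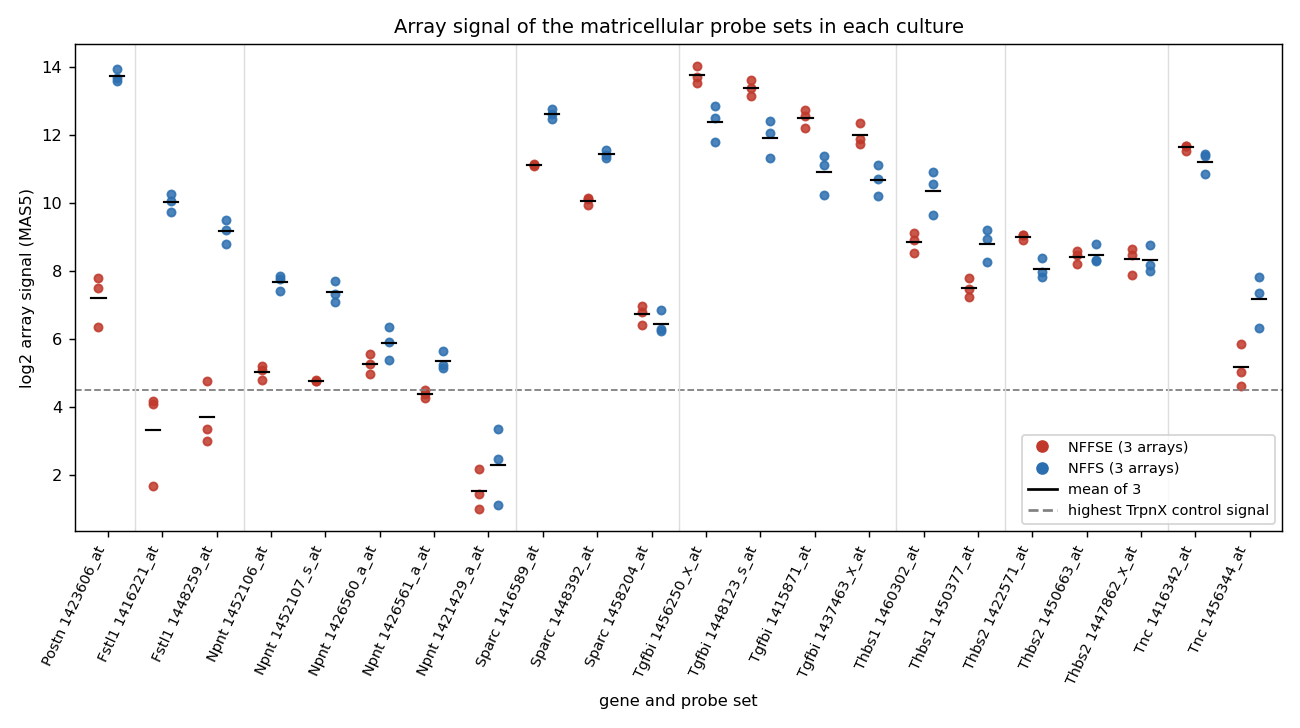
Log2 array signal (vertical axis) of each of the 22 probe sets (horizontal axis, grouped by gene) on the 3 NFFSE arrays (red, left) and the 3 NFFS arrays (blue, right), with the mean of 3 as a black bar and the highest TrpnX control signal, 22.7 on the linear scale, as a dashed line. Postn and both Fstl1 probe sets show the widest gaps, all 4 Tgfbi probe sets lie higher in NFFSE, and 1 Npnt probe set lies below the dashed line on all 6 arrays.

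Postn encodes periostin, a secreted fasciclin-domain protein that binds integrins alphav beta3 and alphav beta5 and collagen I. In RefSeq (GRCm38.p6) the gene lies on chromosome 3, from 54359267 to 54391041. Its only probe set, 1423606_at, gave 179, 82.1 and 223 in NFFSE, against 15671, 12363 and 12978 in NFFS. Every NFFS array was thus among very bright signals, while the NFFSE arrays were far lower but all above background. The means were 161 ± 72.1 in NFFSE and 13670 ± 1759 in NFFS (SD, n = 3 each), a log2 difference of -6.52 or 91.6-fold lower in NFFSE. Within repeats 1, 2 and 3 of the experiment the log2 difference was -6.45, -7.23 and -5.86, so that the drop was of the same order each time.

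Tgfbi is the paralog of Postn and was named for its induction by TGF-beta. It lies on chromosome 13, from 56609586 to 56639359, and moved the opposite way. Probe set 1456250_x_at, its brightest (the suffix x marks probes that can also match other transcripts), gave 11752, 13424 and 16685 in NFFSE, against 5836, 7453 and 3582 in NFFS. All NFFSE arrays lay above all NFFS arrays, and NFFS replicate 3 was the lowest. The means were 13954 ± 2509 in NFFSE and 5623 ± 1944 in NFFS, 2.57-fold higher in NFFSE (log2 difference 1.36 ± 0.24, SE, limma adjusted p = 0.0024). Probe set 1415871_at, which carries no such suffix, gave 4716, 6075 and 6864 in NFFSE, against 2232, 2655 and 1204 in NFFS, and was 3.02-fold higher (limma adjusted p = 0.0015). Probe sets 1448123_s_at and 1437463_x_at were 2.74-fold and 2.50-fold higher, so that 4 of 4 were called. With a floor at background the adjusted p of 1456250_x_at in limma was 0.053, and without the fit's intensity trend it was 0.056. In all 4, the within-repeat difference was widest in repeat 3, where it ran from 2.16 to 2.51 on the log2 scale, and for 1456250_x_at it was 1.01, 0.85 and 2.22 in repeats 1, 2 and 3. The 2 fasciclin-domain genes were therefore measured with opposite signs in all 3 repeats, although Postn was picked for its drop.

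The sequences before the starts of these paralogs and of Fstl1 are shown because they are the members with the widest drops and the 1 bright member that rose with all its probe sets. RefSeq (GRCm38.p6) windows of 250 bases before a start were present for 7 of the 8 genes, in 10 windows, and were searched on both strands for TATAAA (the TATA box), TGANTCA (AP-1), GGAATG (TEAD) and CAGAC (the SMAD-binding core). Capitals mark matches, and a match of CAGAC on the opposite strand reads GTCTG.
Postn, chr3:54360857-54361106, plus strand: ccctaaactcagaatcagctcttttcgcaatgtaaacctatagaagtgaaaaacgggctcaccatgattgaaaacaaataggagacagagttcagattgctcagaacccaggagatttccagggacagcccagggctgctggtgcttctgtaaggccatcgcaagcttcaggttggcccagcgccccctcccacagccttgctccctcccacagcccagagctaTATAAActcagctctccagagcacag
Tgfbi, chr13:56609336-56609585, plus strand: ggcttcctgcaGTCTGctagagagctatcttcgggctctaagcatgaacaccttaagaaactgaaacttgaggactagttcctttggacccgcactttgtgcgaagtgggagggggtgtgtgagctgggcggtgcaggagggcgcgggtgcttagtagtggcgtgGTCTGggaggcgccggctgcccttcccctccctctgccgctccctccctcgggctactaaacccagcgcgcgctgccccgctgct
Fstl1, chr16:37776805-37777054, plus strand: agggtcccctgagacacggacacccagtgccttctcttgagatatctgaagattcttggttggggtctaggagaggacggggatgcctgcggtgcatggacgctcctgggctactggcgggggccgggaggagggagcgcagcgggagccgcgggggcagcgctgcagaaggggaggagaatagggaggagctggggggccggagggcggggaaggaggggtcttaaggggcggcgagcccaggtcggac
The Postn window, before the start at 54361107, held 1 TATAAA that begins 26 bases before it, a motif present in 12.4% of 32851 such windows. The window of the other Postn start held 1 CAGAC, 191 bases before it. The Tgfbi window held no TATAAA and 2 CAGAC, 239 and 85 bases before the start, and CAGAC was found in 42.2% of all windows. The Fstl1 window and both Npnt windows held none of the 4 motifs. TATAAA was also found in the Thbs2 window and in both Tnc windows. CAGAC was also found in the windows of Sparc and Thbs2 and in 1 Tnc window. No member window held TGANTCA or GGAATG, which 6.75% and 12.6% of all windows held. The observed over expected CpG ratio was 0.244 for Postn, 0.618 for Tgfbi and 0.645 for Fstl1, against a median of 0.373 over all windows. These are letters in a window and do not show binding.

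Fstl1 encodes a secreted glycoprotein of the SPARC family that is made mostly by mesenchymal cells and binds DIP2A. It lies on chromosome 16, from 37777055 to 37836516. Probe set 1416221_at gave 3.19, 17.01 and 18.1 in NFFSE, all at background, against 1059, 848 and 1229 in NFFS. Probe set 1448259_at gave 26.9, 7.95 and 10.1 in NFFSE, of which 2 were at background, against 445, 586 and 724 in NFFS. No array overlapped, and the drop was at least 45.5-fold for 1416221_at and at least 23.9-fold for 1448259_at, with each NFFSE signal raised to background where it was lower. How far below background Fstl1 lay in NFFSE could not be measured.

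Npnt encodes nephronectin, the integrin alpha8 beta1 ligand, on chromosome 3 from 132881745 to 132950291. Probe set 1452106_at gave 36.9, 33.7 and 27.6 in NFFSE, against 171, 219 and 230.3 in NFFS, 6.31-fold lower. Probe set 1452107_s_at gave 27.4, 26.9 and 26.8 in NFFSE, against 161, 206 and 136 in NFFS, 6.11-fold lower. In both, every NFFSE array lay close to background and below every NFFS array. The other 3 Npnt probe sets showed less. Probe set 1426561_a_at was at background on all NFFSE arrays and gave 35.3, 37.4 and 50 in NFFS, at least 1.78-fold lower in NFFSE. Probe set 1426560_a_at gave 38.5, 31.5 and 47.3 in NFFSE, against 60.4, 81.8 and 41.7 in NFFS, and the media overlapped. Probe set 1421429_a_at was at background on all 6 arrays, and no fold is given. A drop of 6.11-fold or more was therefore read from 2 of the 5 probe sets (the mean over all 5 differed by -1.52 on the log2 scale), and the signal of the gene was modest in NFFS too.

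Sparc encodes osteonectin, a calcium- and collagen-binding glycoprotein, on chromosome 11 from 55394159 to 55420080. Probe set 1416589_at gave 2171, 2227 and 2246 in NFFSE, against 6309.8, 5706 and 6977 in NFFS. The NFFSE arrays were nearly equal and lay well below every NFFS array. Means were 2215 ± 39.2 in NFFSE and 6331 ± 636 in NFFS, 2.85-fold lower in NFFSE (log2 difference -1.51 ± 0.11, SE, limma adjusted p = 1.0e-05). Probe set 1448392_at gave 984, 1107 and 1127 in NFFSE, against 2737, 2543 and 3033 in NFFS, 2.58-fold lower (limma adjusted p = 2.6e-05). Probe set 1458204_at gave 125, 111 and 84.8 in NFFSE, against 115, 78.0 and 74.5 in NFFS. There the media overlapped and the log2 difference was 0.27 (95% interval -0.37 to 0.91, limma adjusted p = 0.59). Sparc was thus lower in NFFSE by 2 of its 3 probe sets, and the mean over its 3 probe sets differed by -0.87 on the log2 scale.

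Sparcl1, the closest relative of Sparc (also called hevin), had the opposite difference. It gave 2674, 3688 and 3294 in NFFSE, against 288, 283 and 214 in NFFS, 12.3-fold higher in NFFSE (limma adjusted p = 7.3e-07). On each array the log2 signal of Sparc minus that of Sparcl1, each centered on its own mean over the 6 arrays, was -2.34, -2.77 and -2.59 in NFFSE and 2.41, 2.30 and 2.99 in NFFS. The contrast between the pair differed by -5.13 (NFFSE minus NFFS), without overlap. This restates both differences, and no test is given.

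Thbs1 and Thbs2 encode trimeric thrombospondins that inhibit angiogenesis, and thrombospondin 1 is also known as an activator of latent TGF-beta. Thbs1 lies on chromosome 2, from 118111876 to 118127133. Probe set 1460302_at gave 557, 366 and 483 in NFFSE, against 1913, 794 and 1491 in NFFS. All NFFSE arrays were lower, and NFFS replicate 2 was the lowest of its medium. Means were 469 ± 96.4 in NFFSE and 1399 ± 565 in NFFS, 2.84-fold lower in NFFSE (log2 difference -1.51 ± 0.28, SE, limma adjusted p = 0.0038). Probe set 1450377_at gave 178, 151 and 223 in NFFSE, against 585, 310 and 490 in NFFS, 2.45-fold lower (limma adjusted p = 0.0040). The adjusted p of 1460302_at in limma was 0.066 both with a floor at background and without the intensity trend.

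Thbs2 lies on chromosome 17, from 14665500 to 14694262. Probe set 1422571_at gave 534, 485 and 530 in NFFSE, against 330, 228 and 250.5 in NFFS, without overlap. It was 1.94-fold higher in NFFSE (log2 difference 0.96 ± 0.17, SE, limma adjusted p = 0.0024). The other probe sets did not show this rise. Probe set 1450663_at gave 354, 294 and 386 in NFFSE, against 440, 321 and 313 in NFFS (log2 difference -0.046, 95% interval -0.45 to 0.35). Probe set 1447862_x_at gave 357, 237 and 400 in NFFSE, against 433, 258 and 288 in NFFS (log2 difference 0.024, 95% interval -0.52 to 0.57). Both overlapped between media, so the direction of Thbs2 rests on 1 of its 3 probe sets, and its mean over probe sets was 0.31 on the log2 scale (limma adjusted p = 0.30). Between the brightest probe sets, Thbs1 minus Thbs2 differed by -2.46 on the centered log2 scale, with no overlap. This restates their separate differences and uses the 1 Thbs2 probe set that was called higher.

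Tnc lies on chromosome 4, from 63959785 to 64047015, and its 2 probe sets gave opposite directions. Probe set 1416342_at gave 3285, 2976 and 3282 in NFFSE, against 2752, 2674 and 1836 in NFFS. All NFFSE arrays were above all NFFS arrays, NFFS replicate 3 being the lowest, but the difference of 1.34-fold was not called (log2 difference 0.42 ± 0.15, SE, 95% interval 0.075 to 0.76, limma adjusted p = 0.087). With arrays centered on their medians it was 0.62 and was called (limma adjusted p = 0.023). Probe set 1456344_at gave 24.5, 32.8 and 57.8 in NFFSE, against 80.0, 227 and 163 in NFFS, 3.99-fold lower in NFFSE (log2 difference -1.997 ± 0.45, SE, limma adjusted p = 0.011). That call was lost in limma with a floor at background (adjusted p = 0.078) and without the intensity trend (adjusted p = 0.067). Relative to each other, the probe sets moved apart by 2.41 on the centered log2 scale, without overlap between media. This restates their separate differences. The mean of both was -0.79 on the log2 scale (limma adjusted p = 0.031), so no single direction is given for Tnc. Over all genes with at least 2 probe sets, 0.832% had probe sets called in both directions.

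**Figure D2:**
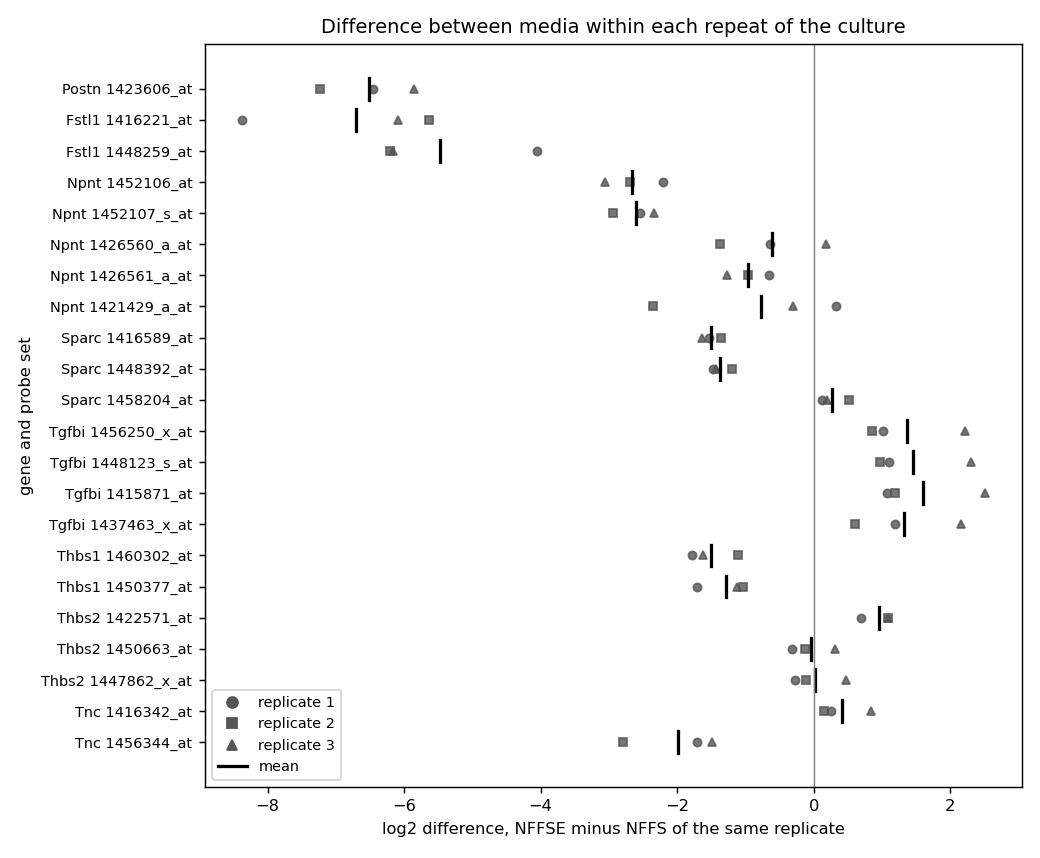
Log2 difference, NFFSE minus NFFS, within each of the 3 repeats of the experiment (circles, squares and triangles for repeats 1, 2 and 3) for the 22 probe sets, with the mean as a black bar (horizontal axis, log2 units). Postn lies between -7.23 and -5.86, the Tgfbi probe sets lie right of 0 in every repeat with repeat 3 farthest right, and the Sparc and Thbs1 calls lie left of 0 in every repeat.

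By the distance between log2 profiles over the 6 arrays, each centered on its own mean, among 10181 genes bright in at least 1 medium, the genes nearest to Postn were Lgr5 (1.18), Cdh11 (1.41), Shisa2 (1.47), Fbln5 (1.60) and Podxl2 (1.61). Lgr5, a receptor for R-spondins and a marker of follicle stem cells, averaged 50.8 in NFFSE and 3192 in NFFS, and Cdh11, a cadherin of mesenchymal cells, averaged 27.4 in NFFSE and 1373 in NFFS. Fbln5 and Podxl2 averaged 3.59 and 7.57 in NFFSE, below background, so their distances rest in part on signals that could not be measured. Nearest to Npnt were Zfp566 (0.30), Klhl13 (0.46), Smarca1 (0.48), Zfp760 (0.52) and Cd200 (0.54). Cd200, a surface glycoprotein used to sort bulge cells, averaged 58.4 in NFFSE and 296 in NFFS. Nearest to the Tnc probe set 1416342_at were Nlgn2 and Pigb (0.17 each), Gjb6 and Tom1 (0.20 each) and Nkiras2 (0.21). With 6 arrays in 2 media, this distance mainly follows the size of the difference between media.

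Of 28 further matricellular and matrix glycoproteins, 27 were measured, each read from its brightest probe set. In NFFSE limma called 2 higher and 8 lower, with 17 not called, of which 11 were dim in both media. Over all genes read this way, 10.5% were called higher and 14.8% lower, 25.4% in all. The list's median log2 difference was -0.50, against -0.01 over all genes. Ccn2 (connective tissue growth factor, a CCN protein induced by TGF-beta and by YAP) gave 113, 76.3 and 169 in NFFSE, against 3431, 3013 and 4461 in NFFS, 31.7-fold lower (limma adjusted p = 1.8e-06). Smoc2, a SPARC-related calcium-binding protein, gave 378, 415 and 478 in NFFSE, against 3495, 3980.2 and 5617 in NFFS, 10.1-fold lower (limma adjusted p = 1.8e-06). Fbln5, an elastic fiber protein, was at background on all NFFSE arrays and gave 279, 255 and 454 in NFFS, at least 14.0-fold lower (limma adjusted p = 1.0e-05), although its other probe set was not called, with a log2 difference of 1.06. Tnn (tenascin N), the relative of Tnc, was at background on all 6 arrays.

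Outside the rule for naming, and chosen after their values were seen, the remaining calls of that list were Egfl6, Fn1, Fbln1, Thbs3, Ccn4 and Fst. Egfl6, a basement membrane protein that the bulge secretes near the arrector pili muscle and, as nephronectin, an integrin alpha8 beta1 ligand, gave 45.4, 50.2 and 124 in NFFSE, against 919.6, 891 and 959.7 in NFFS, 14.1-fold lower (limma adjusted p = 3.1e-05). Fn1 (fibronectin) gave 253, 162 and 318 in NFFSE, against 1896, 1478 and 1725 in NFFS, 7.18-fold lower. Fbln1 was 1.65-fold lower, Thbs3 at least 3.03-fold lower and Ccn4 at least 1.89-fold lower (limma adjusted p = 0.048 for Ccn4). The Ccn4 call was lost with the replicate number as a block (limma adjusted p = 0.072) and on leaving out any array except NFFSE replicate 3. In limma it was also lost with arrays centered on their medians (adjusted p = 0.065), with quantile normalization (0.057), with a floor at background (0.089) and without the intensity trend (0.052). By the methods' t-test its adjusted p was 0.095. The call of Fbln1 was lost in limma with arrays centered on their medians (adjusted p = 0.062), with a floor at background (0.084), without the intensity trend (0.11), with the mean of its probe sets (0.050) and without NFFSE replicate 2 (0.053). Fst (follistatin, an activin antagonist) was 2.08-fold higher, and it was not called without NFFSE replicate 1, NFFSE replicate 2 or NFFS replicate 3 (limma adjusted p = 0.062, 0.10 and 0.050), each of which left 1 gene called higher in place of 2.

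**Figure D3:**
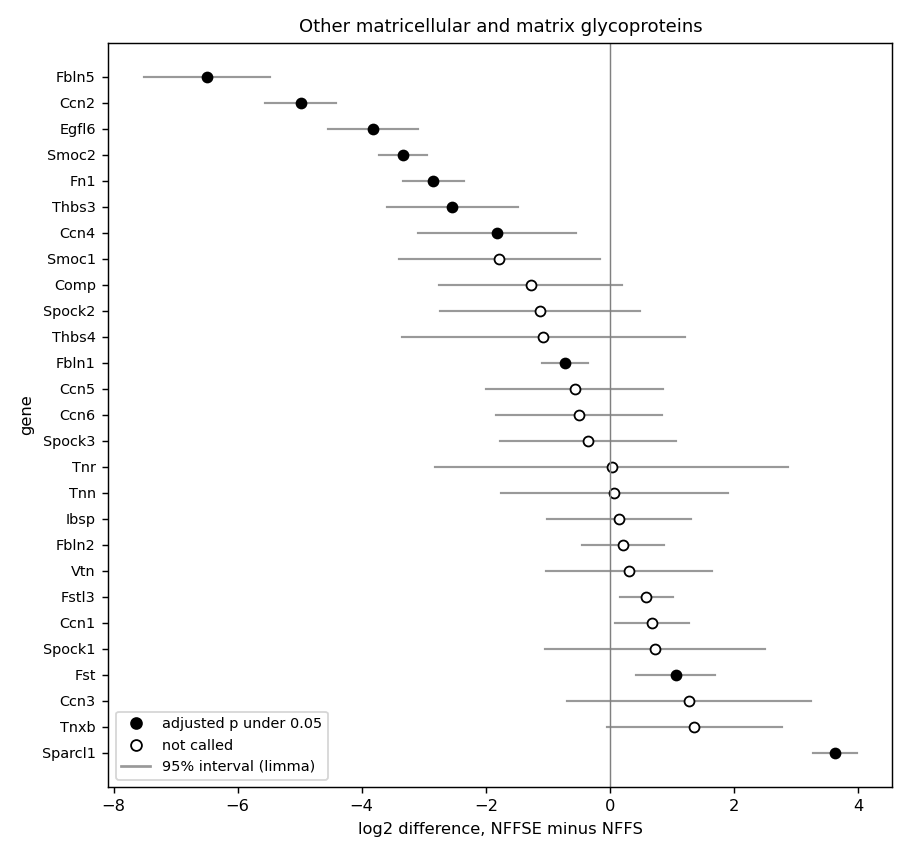
Log2 difference, NFFSE minus NFFS (horizontal axis), of 27 further matricellular and matrix glycoprotein genes, each from its brightest probe set, with 95% limma intervals as lines and filled points for an adjusted p under 0.05. Sparcl1 at 3.62 and Fst at 1.06 are the filled points right of 0, and 8 filled points lie left of 0, down to Fbln5 at -6.49.

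Among 18 receptors and binding partners of these proteins, 8 were called higher and 2 lower in NFFSE, against 10.5% higher and 14.8% lower over all genes, with a median log2 difference of 0.30. Stab1, the scavenger receptor stabilin-1 that takes up SPARC, gave 611, 732 and 734 in NFFSE, against 119, 104 and 85.9 in NFFS, 6.76-fold higher (limma adjusted p = 6.3e-06). Itga8, the alpha8 subunit that pairs with beta1 to bind nephronectin, gave 1457, 1250.0 and 1387 in NFFSE, against 2626, 2190.4 and 2161 in NFFS, 1.70-fold lower (limma adjusted p = 0.0012), with 2 of 2 probe sets called. Its partner Itgb1 was 1.54-fold higher (limma adjusted p = 0.0012), but 2 of its 6 probe sets were called, and the mean over probe sets was not (limma adjusted p = 0.36). Itgb8, a subunit through which alphav integrin activates latent TGF-beta, was 1.99-fold lower (limma adjusted p = 0.0019).

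Of the subunits that bind periostin, Itgav was 1.33-fold higher in NFFSE (limma adjusted p = 0.031), a call lost with quantile normalization (adjusted p = 0.16) and without any 1 of 5 of the arrays. Itgb5 gave 2163, 1931 and 2034 in NFFSE, against 2859, 1867 and 2592 in NFFS, and was not called (log2 difference -0.23, 95% interval -0.57 to 0.11, limma adjusted p = 0.35), but was called lower without NFFS replicate 2 (-0.42, limma adjusted p = 0.024). Itgb3 was at background on all arrays. The other receptors called higher, named after their values were seen, were Itgb6, Itga3, Cd47 (a thrombospondin receptor), Lrp1 and Dip2a (a receptor for FSTL1). All probe sets of Itgb6 and Itga3 were called higher, but only 1 of 5 for Cd47 and 1 of 2 each for Lrp1 and Dip2a. With the mean over probe sets, Cd47, Lrp1 and Dip2a were not called (limma adjusted p = 0.71, 0.13 and 0.18). For Itga4 and Itga5, not called by their brightest probe sets, 1 of 5 and 1 of 4 probe sets were called lower. The count of 8 was 4 without NFFSE replicate 1 or NFFS replicate 3 and 5 without NFFSE replicate 2, NFFSE replicate 3 or NFFS replicate 2.

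Because Postn, Tgfbi, Ccn2 and Thbs1 are known as TGF-beta targets in many cells, 11 genes of TGF-beta input and response were read beside them. In NFFSE 3 were called higher and 1 lower, against 10.5% and 14.8% over all genes, and the median was 0.22. The ligand Tgfb3 gave 235, 185 and 279 in NFFSE, against 2021, 1133 and 1751 in NFFS, 6.91-fold lower (limma adjusted p = 2.1e-05). The ligand Tgfb1 gave 773, 724 and 683 in NFFSE, against 527, 256 and 386 in NFFS, 1.94-fold higher (limma adjusted p = 0.013). Ltbp1, which holds latent TGF-beta in the matrix, was 1.82-fold higher (limma adjusted p = 6.0e-04), and Pmepa1, an inhibitor induced by TGF-beta, was 1.45-fold higher (limma adjusted p = 0.0052). With the mean of a gene's probe sets the calls of Ltbp1 and Pmepa1 were lost (limma adjusted p = 0.18 and 0.13), and with a floor at background that of Tgfb1 was (limma adjusted p = 0.096). With the replicate number as a block, the receptor Tgfbr2 was called lower by its brightest probe set (log2 difference -0.34, limma adjusted p = 0.041). It was likewise called lower without NFFS replicate 1. Without NFFS replicate 3 the ligand Tgfb2 was called lower (-0.72, limma adjusted p = 0.036), so that 2 genes were lower in each case. In the main fit, however, 1 of the 3 Tgfbr2 probe sets was called higher, and the log2 differences of the 3 ran from -0.34 to 2.47. For Skil, another gene of the list, 1 of 2 probe sets was called higher, with log2 differences from -0.036 to 1.51.

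**Figure D4:**
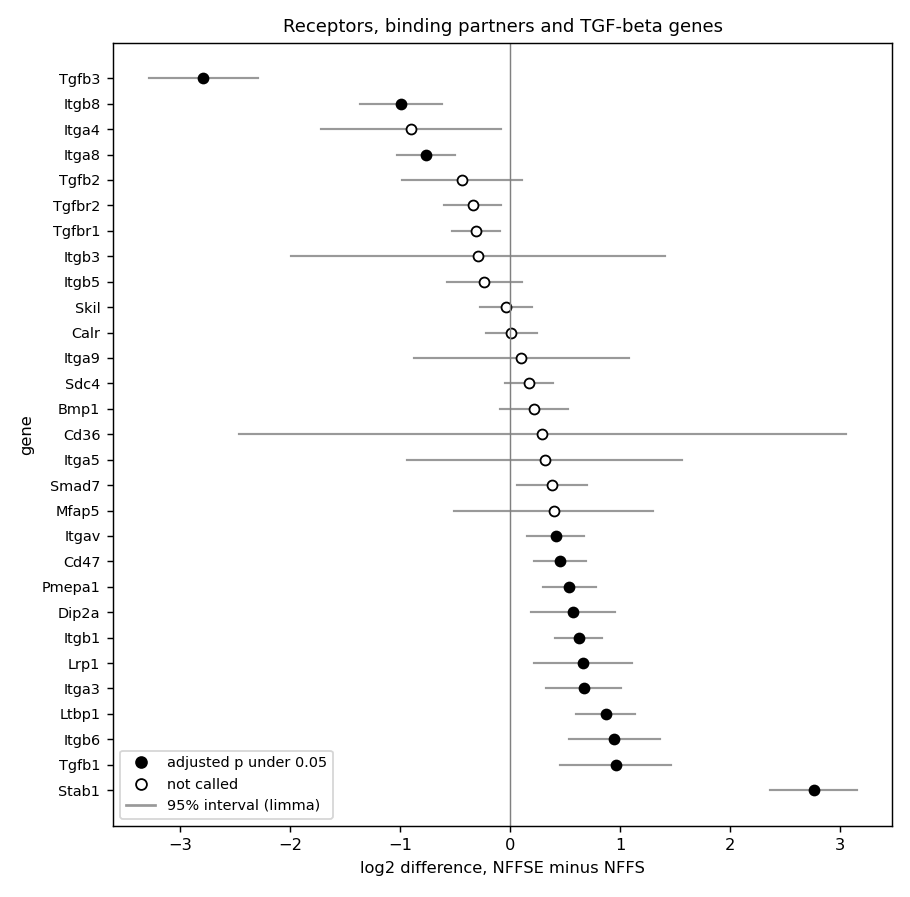
Log2 difference, NFFSE minus NFFS (horizontal axis), of 18 receptor and binding partner genes and 11 TGF-beta genes, each from its brightest probe set, with 95% limma intervals as lines and filled points for an adjusted p under 0.05. Stab1 at 2.76 lies farthest right and Tgfb3 at -2.79 farthest left, with most other genes within 1 of 0.

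Periostin, SPARC, FSTL1 and fibronectin are made in quantity by fibroblasts, so markers of other cell types were read beside them. Of 12 fibroblast and dermal papilla markers, 1 was called higher (Twist2, 4.65-fold) and 3 lower in NFFSE (Col1a2 2.37-fold, Thy1 3.05-fold and Vim 2.31-fold), and 8 were not called, against 25.4% called over all genes. Vim was not called with a floor at background or without the intensity trend (limma adjusted p = 0.074 each) or without NFFS replicate 1 (0.052). Col1a2 was not called with the mean of its probe sets (limma adjusted p = 0.090), although the log2 difference was then -1.84 in place of -1.24. In the main fit 3 of 3 Vim probe sets and 2 of 3 Col1a2 probe sets were called lower. The list's summed signal ran from 730 to 800 in NFFSE and from 804 to 1010 in NFFS. Of the markers not called, Col1a1 gave 54.9, 43.3 and 24.9 in NFFSE, against 41.9, 39.2 and 20.2 in NFFS, and Col3a1 gave 33.1, 36.3 and 25.4 in NFFSE, against 31.5, 23.6 and 36.1 in NFFS, close to background in both media. Dcn gave 44.7, 80.6 and 98.2 in NFFSE, against 140, 117 and 127 in NFFS. The log2 differences of Dcn, Fap and Pdgfrb were negative (-0.85, -0.99 and -0.48). Those of Pdgfra, Lum and Dpt were positive (1.40, 0.39 and 0.37). Of these, only Dcn was above background on every array. Of 6 smooth muscle, pericyte and Schwann cell markers, 2 were lower, Acta2 and Tagln, and 4 were not called, with sums of 288 to 409 in NFFSE and 1194 to 1330 in NFFS. Tagln gave 23.8, 3.22 and 5.56 in NFFSE, against 505, 683 and 703 in NFFS, at least 27.0-fold lower (limma adjusted p = 6.5e-05). Acta2 was 3.01-fold lower (limma adjusted p = 0.0030). Of the markers of melanocytes, leukocytes, endothelium and Merkel cells, 14 in all, none was called by limma or by the methods' t-test, and 2 had an unadjusted p under 0.05 in limma. Of 8 markers of follicle epithelium, Krt14, Itga6 and Cd34 were higher and Krt15 lower in NFFSE, with sums of 131667 to 156195 in NFFSE and 123659 to 143258 in NFFS. The part of these markers in the differences of Postn, Fstl1, Sparc and Fn1 was not tested.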

How the data were processed

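Gene expression was measured on Mouse Genome 430 2.0 arrays in 3 NFFSE and 3 NFFS cultures of bulge epithelial cells. The authors deposited 1 table of linear MAS5 intensity values for 45101 probe sets, scaled so that the 2% trimmed mean of each array was 500.003, and no scanner files were used here. In such short-probe arrays the number of arrays, not a read depth, limits the precision. After 64 control probe sets were left out, the log2 of the deposited intensity was fitted for 45037 probe sets in limma 3.58.1 (R 4.3.3, lmFit and eBayes with an intensity trend), as NFFSE minus NFFS, p-values being adjusted by Benjamini and Hochberg's method across the whole table with no filter, so that all 22 probe sets of the 8 genes were fitted. An adjusted p under 0.05 is a call. The fit and its scripts were tested on simulated data.

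Probe sets were named through the platform annotation, which gave 1 symbol for 34945 of them (18193 genes, 34741 probe sets matched to RefSeq gene IDs) and several for 932. A probe set that lists Thbs1 with another gene was left out, and list genes with no probe set of 1 symbol are not reported here. Each gene was represented by whichever of its probe sets had the highest mean log2 signal over the 6 arrays. Where arrays lay at or below the highest of 18 TrpnX values, 22.7, the fold was computed with those values raised to it and given as "at least". Dim means below the 40th percentile in both media. Named beside the 8 genes were up to 4 genes of each list with the smallest p, Itgb5, Itgav, Itgb1, Itga8, Tnn, Krt5, Krt14 and Krt15, and the 5 nearest profiles of Postn, Npnt and Tnc among genes at or above the 60th percentile in at least 1 medium. Members and lists were chosen with earlier results of these data known.

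Replicate numbers pair the arrays, since each isolation was divided between the media. The main fit did not use this pairing, so its p-values and intervals are unpaired, and the replicate block was run as an alternative. Deviations of same-numbered arrays from their group means correlated at 0.29, 0.16 and 0.14, and those of other pairs at -0.18 to 0.04. Alternatives were arrays centered on their medians, quantile normalization, 16 added to the signal, a floor at background, no intensity trend, the replicate block, a filter on dim probe sets, a gene-level fit by the highest or the mean probe set, the methods' t-test, and leaving out each array in turn. Replicate arrays come from repeats of the experiment, and the number of mice per repeat is not given in the sources used here.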

Additional observations from a re-analysis of the deposited data

How the results depend on the processing

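Of all probe sets, 7.69% were called higher and 12.7% lower in NFFSE. These shares were 4.01% and 7.15% without the intensity trend, 13% and 21.3% with dim probe sets left out, and 4.3% and 6.67% by the methods' t-test after Benjamini-Hochberg adjustment. With arrays centered on their medians 8.09% were lower. On leaving out 1 array they ran from 5.35% to 7.87% and from 9.24% to 11.2%.

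Of the 5 genes tested, Tgfbi and Thbs2 were called higher and Sparc and Thbs1 lower (2 and 2). With a floor at background, without the trend and by the methods' t-test this was 1 and 1, with Tgfbi and Thbs1 lost as read from their brightest probe sets. Their log2 differences of 1.36 and -1.51 were unchanged there. With the floor the other Tgfbi probe sets and Thbs1 1450377_at kept their calls, and without the trend Tgfbi 1415871_at and 1448123_s_at did. With the mean of a gene's probe sets 1 was higher, with Thbs2 lost. By the methods' t-test the adjusted p was 0.094 for Tgfbi and 0.11 for Thbs1. The Tnc difference of 0.42, from 1416342_at, turned to -0.79 with the mean of its probe sets, which takes in 1456344_at at -1.997. Why these probe sets differ in direction was not tested. Leaving out any 1 array kept the counts at 2 and 2.

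Of the other matricellular genes, 2 were higher, and this was 4 with arrays centered on their medians, 1 with the floor, without the trend and by the methods' t-test, and 1 to 3 on leaving out 1 array. The 8 receptors called higher were 3 with the floor, with the mean of probe sets and by the methods' t-test, 2 without the trend, and 4 to 8 on leaving out 1 array. The 2 called lower were 1 without the trend and by the methods' t-test. Of the TGF-beta genes, 3 were higher, and 1 without the trend. There 1 was lower, and this was 3 with quantile normalization, with dim probe sets left out and at the gene level by the highest probe set, 2 with 16 added, with the floor and by the methods' t-test, and 1 to 2 on leaving out 1 array.

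With the replicate number as a block, 2 TGF-beta genes were lower in place of 1 and Ccn4 lost its call. No call of the 5 tested genes changed under this pairing. Postn kept a log2 difference of -6.81 to -6.09 on leaving out 1 array. Where NFFSE signals lay at background, as for Fstl1, the fold is bounded from below only.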
